A study of Mus musculus with 2 samples.

Results

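The 10 genes described here are 7 genes of the contractile apparatus (Tagln, Acta2, Cnn1, Myl9, Tpm1, Tpm2 and Actg2) and 3 genes commonly read as targets of the co-activator YAP (Ccn1, Ccn2 and Ankrd1). They were taken by symbol from the 32285 genes of the count tables, and each symbol had 1 row. The tables hold single-cell RNA counts of lens epithelium from C57BL/6N wild-type pups at postnatal day 2, in 2 pools of 4 to 8 pups that are biological replicates. No pup carried an engineered allele or received a treatment, and the vascular coat and ciliary body had been stripped from the lenses with forceps and trypsin before the epithelium was taken. The levels were compared between mural-like cells and lens epithelial cells (LECs) of the same pools, and between the classes of LECs, and the level in LECs was set against the amount that free RNA of mural cells would bring.

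Mural cells (pericytes and vascular smooth muscle) wrap the vessels around the developing lens. Smooth muscle actin, transgelin and calponin are usual marker proteins of the vascular smooth muscle among them. Lens epithelial cells can make the same proteins when they turn into myofibroblasts after injury or cataract surgery, a change driven by transforming growth factor beta and by the serum response factor (SRF) with its co-activators MRTF. YAP and its relative TAZ enter the nucleus when the Hippo kinases are inactive and act through the TEAD factors, and Ccn1 and Ccn2, which encode secreted matrix proteins, are also induced as immediate early genes when tissue is stimulated.

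Each cell was assigned from marker genes alone, and none of the 10 genes or of the 3 mural tracers used below was among the markers. LECs had 2% or more of their UMIs (unique molecular identifiers, 1 per captured transcript) from Cryaa and Cryab and at most 3 UMIs of 8 mural genes, whereas mural-like cells had at least 5 UMIs of the mural genes and less alpha crystallin. This gave 161 mural-like cells and 10099 LECs in pool 1, and 212 mural-like cells and 7341 LECs in pool 2. Endothelial-like cells numbered 326 and 210, and macrophage-like cells 25 and 27. The median depth was 3304 and 3448 UMIs in mural-like cells and 6259 and 8121 UMIs in LECs. The 8 mural markers summed to 6174 and 6738 counts per 1000000 UMIs (CPM) in mural-like cells and to 33.9 and 34.0 CPM in LECs, where Notch3 gave 28.4 and 28.9 CPM of that sum. The 6 fibroblast markers summed to 592 and 648 CPM in mural-like cells, with 3 and 4 of them detected, against 96.5 and 103 CPM in LECs. In mural-like cells Dcn and Lum were at 0 in both pools, and Col1a1 and Pdgfra averaged 12.7 and 0.679 CPM. Most of the mural-like sum thus came from the remaining markers, Col1a2 and Col3a1. Pdgfra averaged 97.7 CPM in LECs and made up nearly all of the LEC sum. The 9 endothelial markers summed to 486 and 528 CPM in mural-like cells, with 6 and 8 of them detected, against 67.8 and 66.6 CPM in LECs. Cldn5 had 0 and 2 UMIs in mural-like cells, so their sum came from other markers of the list. The part of fibroblast and endothelial RNA in the mural levels was not tested. In mural-like cells Myh11, the myosin heavy chain of mature smooth muscle, reached 9.34 and 21.7 CPM. Of all barcodes in the tables, 27 were shared by name between the pools.

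On the mm10 build the contractile genes lie at chr9:45929619-45936058 (Tagln), chr19:34241090-34255590 (Acta2), chr9:22099216-22109630 (Cnn1), chr2:156775420-156781658 (Myl9), chr6:83512905-83536265 (Actg2), chr9:67022590-67049406 (Tpm1) and chr4:43514711-43523765 (Tpm2). The YAP targets lie at chr3:145646976-145649981 (Ccn1), chr10:24595442-24598683 (Ccn2) and chr19:36111961-36120099 (Ankrd1). All 10 are protein-coding, and each count covers the whole gene, with no isoform told apart. Tagln overlaps Pcsk7 and Ccn2 overlaps Gm15270, both on the opposite strand.

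Promoters are printed for Acta2, Tpm1 and Ccn1, the members with the highest levels in LECs, and for Myl9, which ran opposite to them across the LEC classes. Each line gives the 250 bases before the RefSeq start (GRCm38.p6), 5′ to 3′ on the gene's strand. Capitals mark matches on either strand to GGAATG, the core bound by TEAD factors, and to the CArG box bound by SRF with at most 1 mismatch.
Acta2: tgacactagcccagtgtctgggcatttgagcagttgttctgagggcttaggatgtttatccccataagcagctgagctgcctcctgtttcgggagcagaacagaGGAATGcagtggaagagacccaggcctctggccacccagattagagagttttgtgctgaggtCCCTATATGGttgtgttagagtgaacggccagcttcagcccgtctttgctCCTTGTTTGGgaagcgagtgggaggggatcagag
Tpm1: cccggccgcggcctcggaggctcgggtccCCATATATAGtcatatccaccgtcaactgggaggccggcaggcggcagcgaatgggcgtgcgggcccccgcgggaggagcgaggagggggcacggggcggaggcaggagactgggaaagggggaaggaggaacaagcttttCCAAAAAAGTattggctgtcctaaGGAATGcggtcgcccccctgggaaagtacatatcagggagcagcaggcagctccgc
Ccn1: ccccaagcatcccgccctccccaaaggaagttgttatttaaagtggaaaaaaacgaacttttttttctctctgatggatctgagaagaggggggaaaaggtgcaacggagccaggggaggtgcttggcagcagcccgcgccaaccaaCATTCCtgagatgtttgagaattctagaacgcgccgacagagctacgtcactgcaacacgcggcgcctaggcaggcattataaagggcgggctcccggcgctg
Myl9: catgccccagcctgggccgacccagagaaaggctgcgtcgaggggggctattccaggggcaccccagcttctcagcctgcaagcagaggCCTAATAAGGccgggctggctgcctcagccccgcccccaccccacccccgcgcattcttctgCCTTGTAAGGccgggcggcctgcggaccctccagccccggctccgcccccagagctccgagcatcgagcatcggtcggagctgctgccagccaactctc

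The Acta2 window (chr19:34255374-34255623, minus strand) held GGAATG 146 to 141 bases before the start and CArG boxes with 1 mismatch 84 to 75 and 34 to 25 bases before it. Tpm1 (chr9:67049214-67049463, minus strand) held GGAATG at 56 to 51 bases and 2 CArG boxes with 1 mismatch. Ccn1 (chr3:145649986-145650235, minus strand) held the reverse complement CATTCC at 103 to 98 bases and no CArG box. Myl9 (chr2:156775214-156775463, plus strand) held an exact CArG box at 161 to 152 bases, a second with 1 mismatch, and no GGAATG. Of 32851 windows of the same length, 12.6% held GGAATG, 1.47% an exact CArG box and 18.6% one with at most 1 mismatch. The AP-1 sequence TGANTCA, present in 6.75% of windows, was in none of the 4. These are matches of letters, and nothing about binding was measured.

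Mural-like cells had higher levels of 5 contractile genes than LECs, by 2.18-fold for Tpm1 up to 28-fold for Myl9, and lower levels of the YAP targets Ccn1 and Ccn2. All 5 contractile genes were nevertheless detected in LECs of both pools, and Acta2 was within a few fold of its mural level. Of the 10 genes, 7 passed the filter on low counts, and all 7 were called (5 higher and 2 lower), against 54.9% of 9861 genes tested in this comparison. Cnn1, Actg2 and Ankrd1 did not pass the filter. Levels below are CPM of the raw sums, whereas fold changes were fitted on sums scaled on the bulk of genes. The scaling factors were 1.04 and 0.997 in mural-like cells, against 0.878 and 0.865 in LECs, so ratios of printed levels differ from the folds.

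Acta2, which encodes smooth muscle alpha actin, had 968 and 754 CPM in mural-like cells of pools 1 and 2, against 240 and 213 CPM in LECs. Both mural-like sums lay above both LEC sums, and the fitted log2 fold change was 1.69 ± 0.11 (edgeR adjusted p = 1.67e-15). The SE was worked back from the fold change and the test statistic, so it is not separate from the p-value. Here and below the SE rests on a spread fitted over all cell types or classes and shared between genes. It is not the spread between the pools. A UMI of Acta2 was found in 54.0% and 49.5% of mural-like cells, against 49.6% and 52.4% of the deeper LECs. With every cell thinned to 2000 UMIs the shares were 48.2% and 45.7% in mural-like cells, against 28.8% and 27.0% in LECs. In endothelial-like cells, whose usual markers do not include this actin, 4.60% and 2.38% of cells had a UMI before thinning, at median depths of 3171 and 3328 UMIs.

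Tagln, which encodes the actin-binding protein transgelin, had 577 and 444 CPM in mural-like cells, against 32.6 and 27.3 CPM in LECs. The log2 fold change was 3.86 ± 0.13 (adjusted p = 5.08e-24). Myl9, the regulatory light chain of smooth muscle and non-muscle myosin, had 1971 and 1791 CPM in mural-like cells, against 60.4 and 54.5 CPM in LECs, a log2 fold change of 4.80 ± 0.11 (adjusted p = 2.6e-29). Myl9 was the most widespread of the 10 genes in mural-like cells, with a UMI in 94.4% and 95.3% of them, whereas Tagln had one in 52.2% and 36.8%.

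The tropomyosins Tpm1 and Tpm2, which lie along the actin filament, were less separated. Tpm1 had 837 and 629 CPM in mural-like cells, against 312 and 258 CPM in LECs (log2 fold change 1.12 ± 0.10, adjusted p = 9.73e-12). Tpm2 had 594 and 503 CPM in mural-like cells, against 78.1 and 72.5 CPM in LECs (log2 fold change 2.63 ± 0.13, adjusted p = 2.96e-19). Tpm1 was also found in endothelial-like cells, at 121 and 102 CPM, whereas Tpm2 had 3.32 and 0 CPM there.

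Ccn1, also called Cyr61, was the member with the highest level in LECs and had 105 and 81.5 CPM in mural-like cells, against 381 and 335 CPM in LECs. It was 4.56-fold lower in mural-like cells (log2 fold change -2.19 ± 0.15, adjusted p = 1.14e-14). Ccn2, which encodes connective tissue growth factor, had 69.1 and 95.1 CPM in mural-like cells, against 106 and 115 CPM in LECs. Its log2 fold change of -0.70 ± 0.24 passed the threshold (adjusted p = 0.0145), but not without the pool term (0.101), with scaling to library size alone (0.114) or in DESeq2 (0.298). Endothelial-like cells had 52.4 and 178 CPM of Ccn2 in pools 1 and 2, the widest gap between pools among the members with 20 or more UMIs in a sum.

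Cnn1, the calponin of differentiated smooth muscle, had no UMI in 161 and 212 mural-like cells, which over both pools allows up to 0.804% of cells with a UMI at this depth and sets no limit on cells that express the gene weakly. It had 7 and 3 UMIs in all LECs. Actg2, the enteric smooth muscle actin, had 2 and 3 UMIs in mural-like cells, against 1 and 0 UMIs in LECs. Ankrd1, a cardiac and stretch-responsive YAP target, had 0 UMIs in mural-like cells of both pools, against 26 and 42 UMIs in LECs (0.36 and 0.66 CPM). These 3 genes were too low for a fold change, and intervals and limits of this kind cover counting error only.

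**Figure D1:**
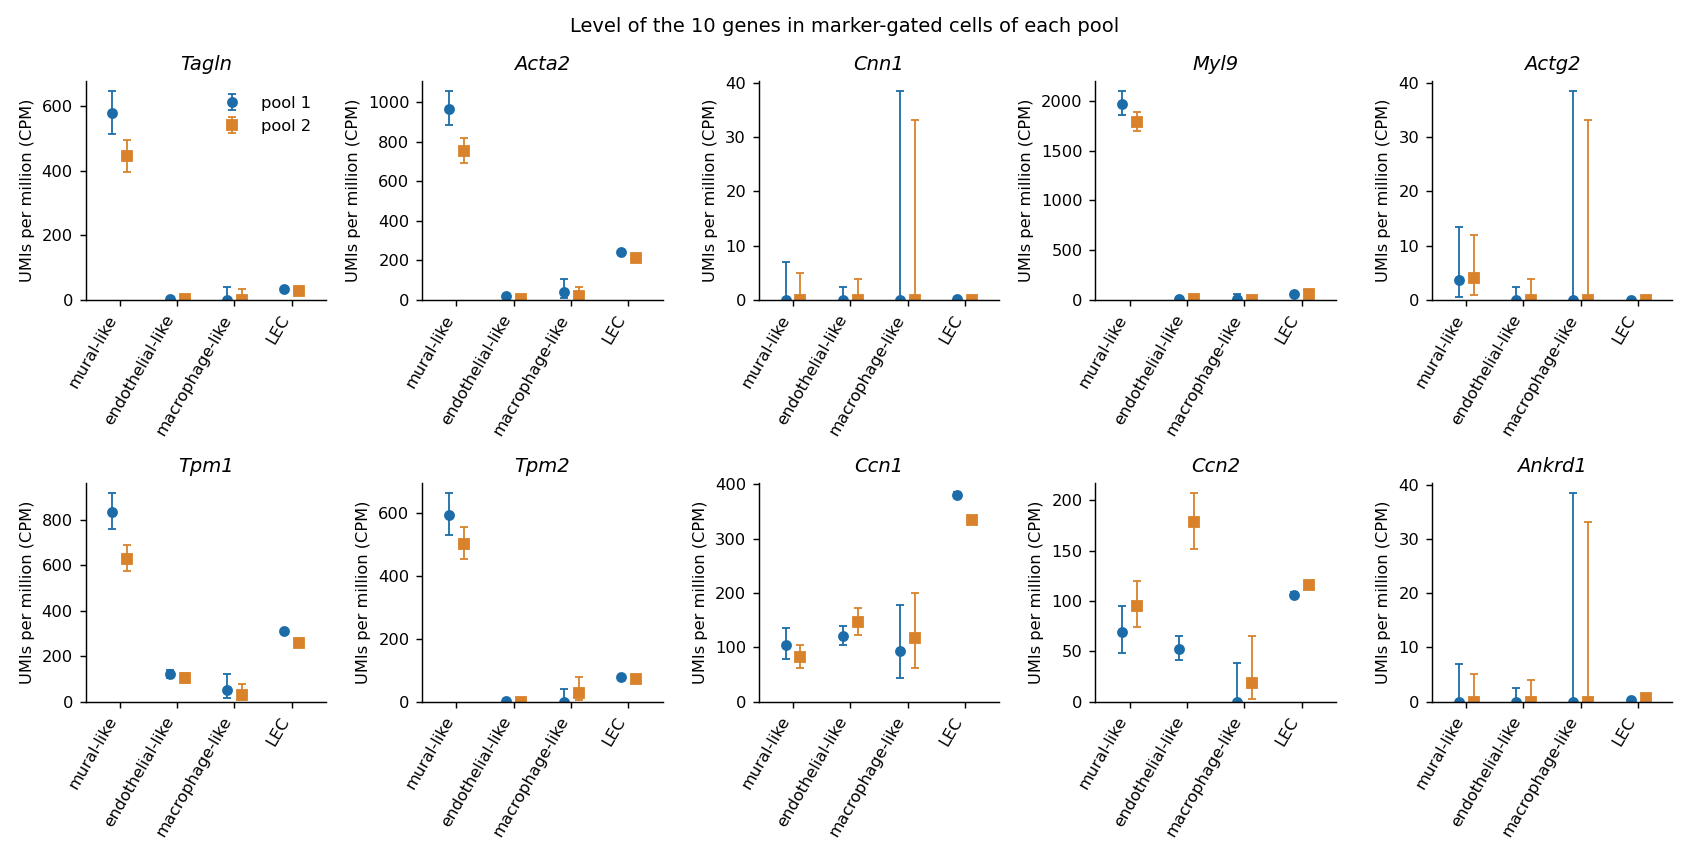
Level of each of the 10 genes (CPM) in the cell types gated by markers, with the 2 pools as separate points and exact Poisson 95% intervals as bars. The 5 contractile genes above the count filter were highest in mural-like cells, at 444 to 1971 CPM, while Ccn1 was highest in LECs, at 335 and 381 CPM.

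The RNA of mural cells that reached LEC barcodes was read from Rgs5, Mgp and Serpine2, mural genes that were not used in the gate. Rgs5, a pericyte regulator of G protein signalling, had 16453 and 17577 CPM in mural-like cells, against 2.51 and 2.97 CPM in LECs, a share of 0.0152% and 0.0169%. Mgp gave 0.0185% and 0.0122%, and Serpine2 gave 0.116% and 0.0980%. Applied to the mural level of Acta2, these shares bring 0.0923 to 1.12 CPM to LECs, and the measured 240 and 213 CPM were 215 to 2312 times as much. The measured level was at least 48.8 times the carried amount for Tagln, 26.5 times for Myl9, 323 times for Tpm1, 114 times for Tpm2, 3154 times for Ccn1 and 1238 times for Ccn2. Carried RNA with the mean make-up of the gated mural-like cells reached at most 3.78% of the LEC level of these 7 genes. That maximum was taken over the 3 tracers and both pools, and was the share of Myl9. RNA from cells rich in a member but poor in the tracers would not be counted by these shares, and was not tested.

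LECs that held a UMI of any tracer were set beside those that held none. In pool 1, Acta2 was at 210 CPM in 416 LECs with a tracer UMI and at 242 CPM in 9683 LECs without one, and in pool 2 at 182 CPM in 380 LECs and 215 CPM in 6961 LECs. Myl9 was at 50.05 CPM with and 60.8 CPM without a tracer UMI in pool 1, and at 55.5 and 54.5 CPM in pool 2. Tagln was at 25.2 against 32.9 CPM in pool 1 and at 19.1 against 27.8 CPM in pool 2. Acta2 and Tagln were thus lower in LECs with a tracer UMI in both pools, with no test made. LECs with a tracer UMI were also deeper, at medians of 6753.5 and 8761.5 UMIs, against 6236 and 8100 UMIs without one. Neither depth nor LEC class was matched, so this split does not isolate mural RNA. Leaving out every LEC with a UMI of the mural gate kept 8039 and 5553 LECs and moved Acta2 in LECs to 236 and 214 CPM. Most gate UMIs in LECs were of Notch3, which averaged 42.1 CPM in Notch Effector-like and 7.84 CPM in Late Differentiating-like LECs. That cut therefore does not select by mural RNA alone. The rates hold for LECs kept by the gate, since barcodes with more mural UMIs were not counted as LECs.

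**Figure D2:**
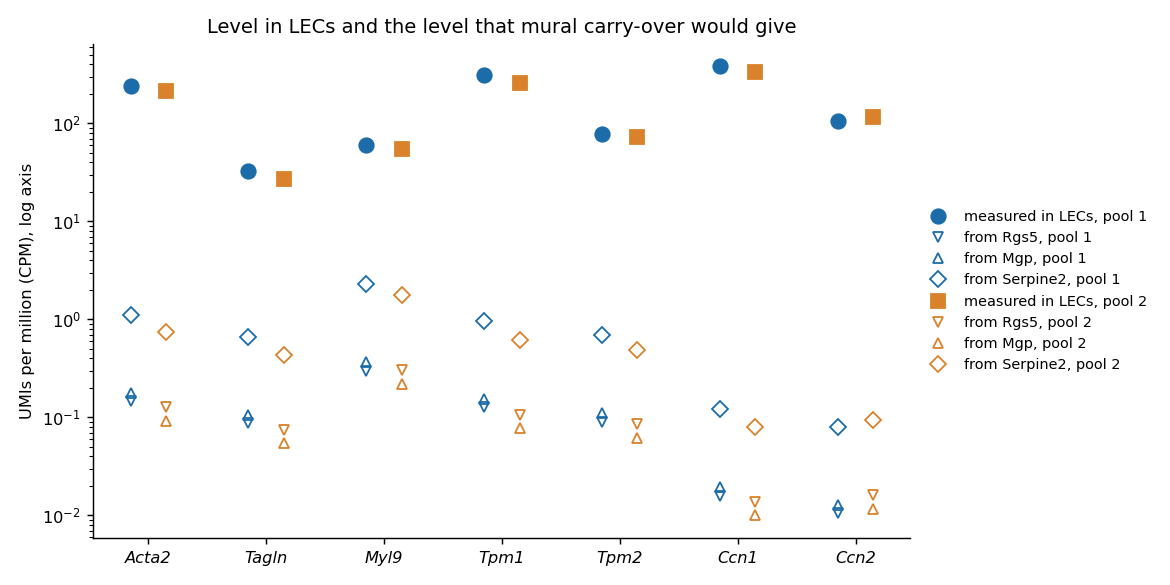
Measured level of 7 genes in LECs (filled, CPM on a log axis) and the level that mural carry-over would give by each of 3 tracers (open), for both pools. Measured values of 27.3 to 381 CPM lay above every open symbol, which reached at most 2.28 CPM.

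The reverse flow was larger. Pax6 and Cdh1, genes of the lens epithelium, were present in mural-like cells at 3.63% to 4.25% of their LEC level, from 7 and 8 UMIs of Pax6 and 2 and 3 UMIs of Cdh1. Another lens gene, Foxe3, gave 52.2% and 0% from 1 and 0 UMIs, and its rate in pool 1 would bring 199 CPM of Ccn1, above the measured level. It was left out of the ranges that follow, after its values were seen, for its low count. Lens RNA at those rates brings 12.2 to 16.2 CPM of Ccn1 to mural-like cells, and the measured 105 and 81.5 CPM were 5.89 to 6.94 times as much. For Ccn2 the measured level was 15.3 to 22.7 times the carried amount, and for Acta2 it was 85.4 to 102 times. In endothelial-like cells, Acta2 at 17.9 and 5.33 CPM was 1.00 to 2.47 times what lens RNA alone would bring.

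The members were unevenly spread among cells. In mural-like cells thinned to 2000 UMIs the variance of the Acta2 count over cells was 3.59 and 5.40 times its mean, and that of Tagln 3.13 and 3.85 times, whereas Tpm1 stayed at 1.73 and 1.61 times. The mural-like cells thus ranged from none to 26 and 32 UMIs of Acta2 before thinning. Of the thinned mural-like cells with a UMI of Acta2, 64.7% and 52.2% also had one of Tagln, against 20.5% and 11.2% of those with no UMI of Acta2. Among LECs the variance over the mean was 2.41 and 2.09 for Acta2, 2.37 and 2.47 for Ccn1 and 2.19 and 2.57 for Tagln, against 1.12 and 1.05 for Pax6 and 1.07 and 1.07 for Myl9. A value of 1 is what random sampling of equal cells would give. The 1% of LECs with the most Tagln held 36.3% and 41.1% of its UMIs, against 11.4% and 10.5% for Acta2. This share rises as a gene gets rarer, and Tagln averaged 0.234 UMIs per LEC, against 1.78 for Acta2. The tracer Rgs5, at 0.0217 UMIs per LEC, had 63.1% and 43.4%, with a variance over the mean of only 0.995 and 1.07. The share therefore does not rank the spread of genes at unlike levels. LECs with 5 or more UMIs of Tagln numbered 121 and 102. Only 3 of them in each pool (2.48% and 2.94%) had a tracer UMI, against 4.14% and 5.21% of the other LECs. With so few cells, and with depth and class not matched, these shares were not compared further.

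LECs were divided into 6 classes by their highest marker score: Late Differentiating-like, Early Differentiating-like, G2M-like, S-phase-like, Notch Effector-like and Progenitor-like. The classes are ranges of a score cut from the same cells, and 1790 of 16320 classed LECs (11.0%) led their next best class by less than 0.25 of a score unit. The 4 Early markers averaged a sum of 6880 CPM in Early and 7346 CPM in Late Differentiating-like LECs. The 7 Late markers had 6372 and 32224 CPM there, so the Early class differed from the Late class by these, not by its own markers. The tests take the classes as given. As above, levels are CPM of the raw sums and fold changes come from the scaled sums. The scaling factors were 0.731 and 0.747 in Late Differentiating-like LECs, against 1.10 and 1.05 in Progenitor-like LECs. Fitted drops in the Late class are therefore smaller, and rises larger, than the ratios of printed levels. Tagln, Acta2, Tpm1, Tpm2, Ccn1 and Ccn2 were lower in both differentiating classes than in Progenitor-like LECs, and Myl9 was higher. Ankrd1 was not called, and Cnn1 and Actg2 did not pass the filter. Among the mural tracers, Rgs5 ranged from 1.73 to 3.85 CPM and Mgp from 0.438 to 1.55 CPM over the 12 class sums. Serpine2 had 1.495 and 0.871 CPM in Late and 1.73 and 1.06 CPM in Early Differentiating-like LECs, against 3.91 and 4.46 CPM in Progenitor-like LECs, so this tracer was lower in the same classes as most members. The part of mural RNA in the class differences was not tested.

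Acta2 had 50.2 and 59.8 CPM in Late Differentiating-like LECs, 60.8 and 46.4 CPM in Early Differentiating-like LECs and 445 and 378 CPM in Progenitor-like LECs. The differentiating and Progenitor-like sums did not overlap. Relative to Progenitor-like LECs it was 5.16-fold lower in the Late class (log2 fold change -2.37 ± 0.07, adjusted p = 2.22e-20) and 7.10-fold lower in the Early class (-2.83 ± 0.07, adjusted p = 1.61e-21). Tpm1 had 130 and 116 CPM in Late Differentiating-like LECs, 152 and 113 CPM in Early Differentiating-like LECs and 478 and 387 CPM in Progenitor-like LECs. Its log2 fold changes were -1.27 ± 0.06 in the Late and -1.60 ± 0.06 in the Early class (adjusted p = 5.4e-17 and 7.34e-19). Tpm2 moved least, with 46.2 and 49.7 CPM in Late Differentiating-like LECs, against 103 and 85.0 CPM in Progenitor-like LECs (log2 fold change -0.43 ± 0.07, adjusted p = 4.27e-06). In UMIs per cell Tpm2 averaged 0.566 in Late and 0.589 in Progenitor-like LECs, so its drop was relative to the RNA of the cell. Acta2 averaged 0.651 and 2.58 UMIs per cell in these classes. Tagln had 6.19 and 9.41 CPM in Late and 10.9 and 4.62 CPM in Early Differentiating-like LECs, against 30.0 and 24.4 CPM in Progenitor-like LECs, and its log2 fold change in the Late class was -1.29 ± 0.20 (adjusted p = 4.43e-06).

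Both detected YAP targets were lower in the differentiating classes as well. Ccn1 had 50.6 and 51.1 CPM in Late Differentiating-like LECs, against 485 and 392 CPM in Progenitor-like LECs. On the scaled sums it had 69.3 and 68.5 CPM against 443 and 372 CPM, and was 5.92-fold lower (log2 fold change -2.57 ± 0.11, adjusted p = 7.62e-17). Ccn2 had 17.0 and 11.3 CPM in Late Differentiating-like LECs, against 160 and 165 CPM in Progenitor-like LECs, and was 7.70-fold lower (-2.94 ± 0.14, adjusted p = 3.88e-16). In Early Differentiating-like LECs, Ccn1 had 87.1 and 46.6 CPM and Ccn2 33.6 and 22.3 CPM, with log2 fold changes of -2.61 ± 0.11 and -2.42 ± 0.13. Ankrd1 stayed between 0 and 1.31 CPM in all 12 sums and was not called in any class.

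Myl9 ran the other way. It had 70.8 and 66.9 CPM in Late Differentiating-like LECs and 114 and 104 CPM in Early Differentiating-like LECs, against 36.9 and 31.6 CPM in Progenitor-like LECs. It was 2.93-fold higher in the Late class (log2 fold change 1.55 ± 0.06, adjusted p = 1.14e-17) and 3.42-fold higher in the Early class (1.78 ± 0.06, adjusted p = 4.41e-19). The 2 pools of each differentiating class lay above every other class sum, of which the highest was 54.6 CPM in G2M-like LECs. Late Differentiating-like LECs were also the deepest, at a median of 11409 and 12738 UMIs, against 5462 and 6910 UMIs in Progenitor-like LECs.

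Of the 10 genes, 8 passed the count filter among the LEC classes. In the Late class 1 was called higher and 6 lower than in Progenitor-like LECs, where 64.6% of 13052 genes were called in either direction. The Early class gave the same counts, 1 higher and 6 lower, where 49% were called. Most genes therefore differed between these classes, and the count of members is read only beside those shares. The fit was normalised on the bulk of genes. With scaling to library size alone the median log2 fold change of all genes shifted to -0.59 in the Late, to -0.11 in the Early and to 0.15 in the mural comparison, against -0.04, -0.01 and -0.07. Of the called genes, 14.1%, 34.8% and 60.8% were then higher, against 48.7%, 50.1% and 48.9%. The 7 called members of each of these comparisons kept their direction under that scaling.

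Between the other classes and Progenitor-like LECs the members split. In Notch Effector-like LECs, Tagln had 68.2 and 74.5 CPM, against 30.0 and 24.4 CPM in Progenitor-like LECs (log2 fold change 1.39 ± 0.14, adjusted p = 1.84e-08). Ccn1 had 629 and 677 CPM there, against 485 and 392 CPM in Progenitor-like LECs, a log2 fold change of 0.59 ± 0.09 (adjusted p = 2.54e-05) that did not pass in DESeq2 (adjusted p = 0.115) or without the pool term (0.0743). Acta2 was lower at 325 and 320 CPM, against 445 and 378 CPM in Progenitor-like LECs (log2 fold change -0.35 ± 0.06, adjusted p = 0.000136, and 0.0714 without the pool term). Tpm1 and Tpm2 were also called lower, but not without the pool term (adjusted p = 0.149 and 0.0838), and Tpm2 also not in DESeq2 (0.0708) or thinned to 2000 UMIs (0.0725). Myl9 was called higher, and Ccn2 at 167 and 219 CPM was not called (adjusted p = 0.0789). Of the 8 genes, 3 were called higher and 3 lower, where 24.2% of all genes were called.

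In S-phase-like LECs, Acta2 had 275 and 252 CPM and Tpm1 335 and 263 CPM, and both were lower than in Progenitor-like LECs (log2 fold changes -0.62 ± 0.06 and -0.51 ± 0.05). Tagln, at 47.7 and 38.0 CPM, and Ccn1, at 616 and 473 CPM, were called higher (0.68 ± 0.15 and 0.33 ± 0.09), but neither passed in DESeq2 (adjusted p = 0.204 and 0.294), nor Ccn1 without the pool term (0.178). These were 2 higher and 2 lower of 8, where 55.2% of all genes were called. In G2M-like LECs, Acta2 had 249 and 210 CPM and was lower (-0.89 ± 0.07, adjusted p = 1.2e-11), while Myl9 had 54.6 and 48.2 CPM and was higher (0.54 ± 0.07, adjusted p = 1.05e-06). With Tagln and Ccn1 higher and Tpm1 and Ccn2 lower this made 3 higher and 3 lower, where 42.5% of all genes were called. The last 4 of these calls did not pass in DESeq2 or without the pool term.

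**Figure D3:**
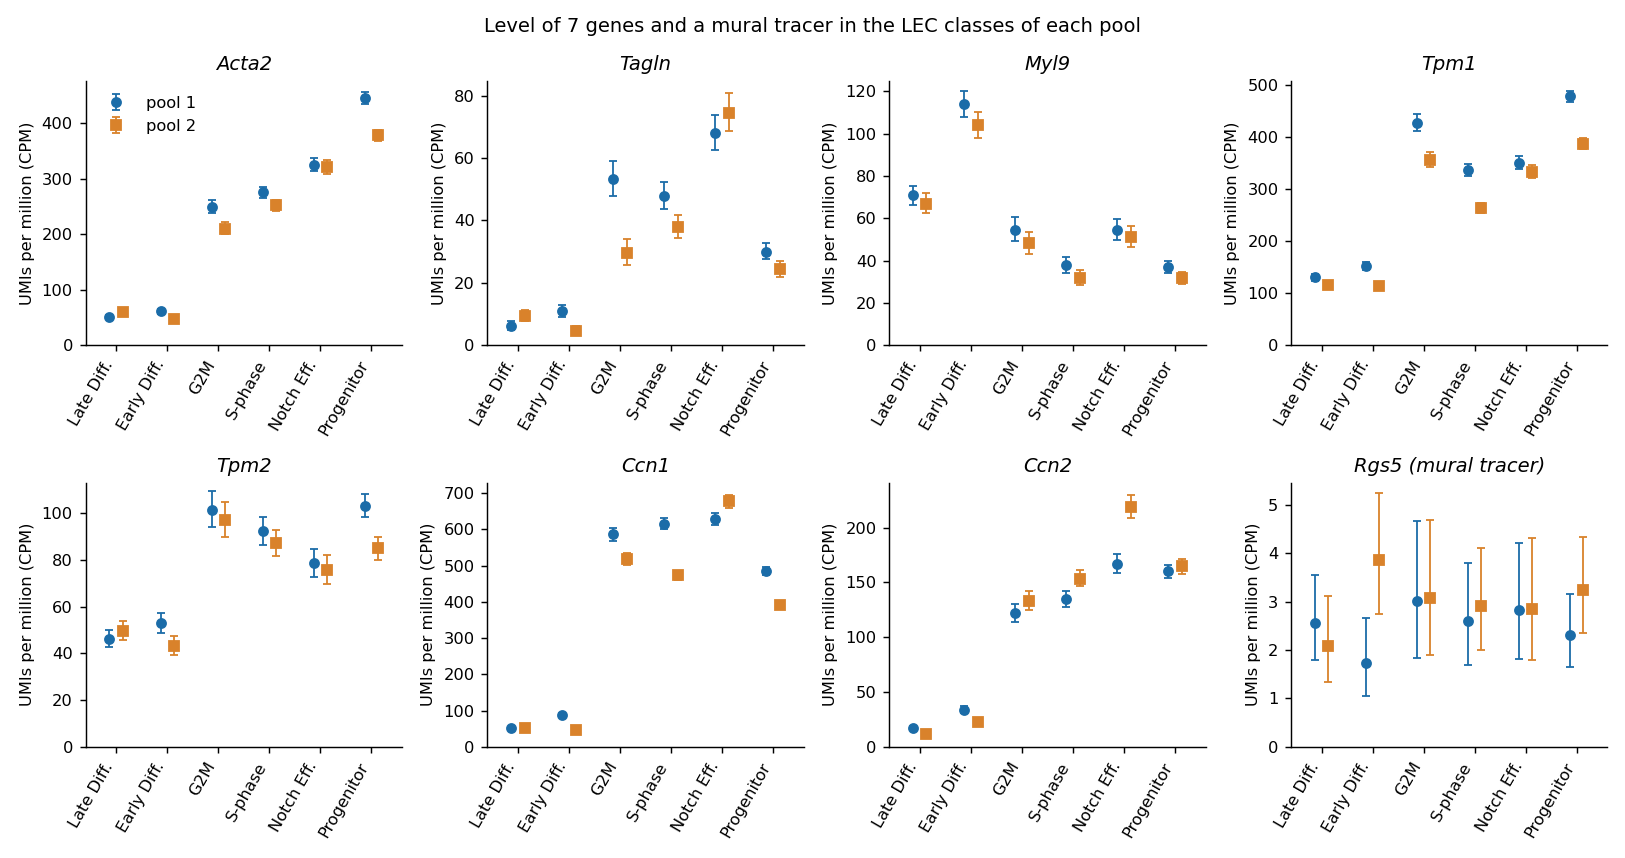
Level of 7 genes and of the mural tracer Rgs5 (CPM) in the 6 LEC classes, with the 2 pools as separate points and exact Poisson 95% intervals as bars. Acta2 was at 46.4 to 60.8 CPM in both differentiating classes, against 378 and 445 CPM in Progenitor-like LECs, and Myl9 was highest in the Early Differentiating-like class.

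**Figure D4:**
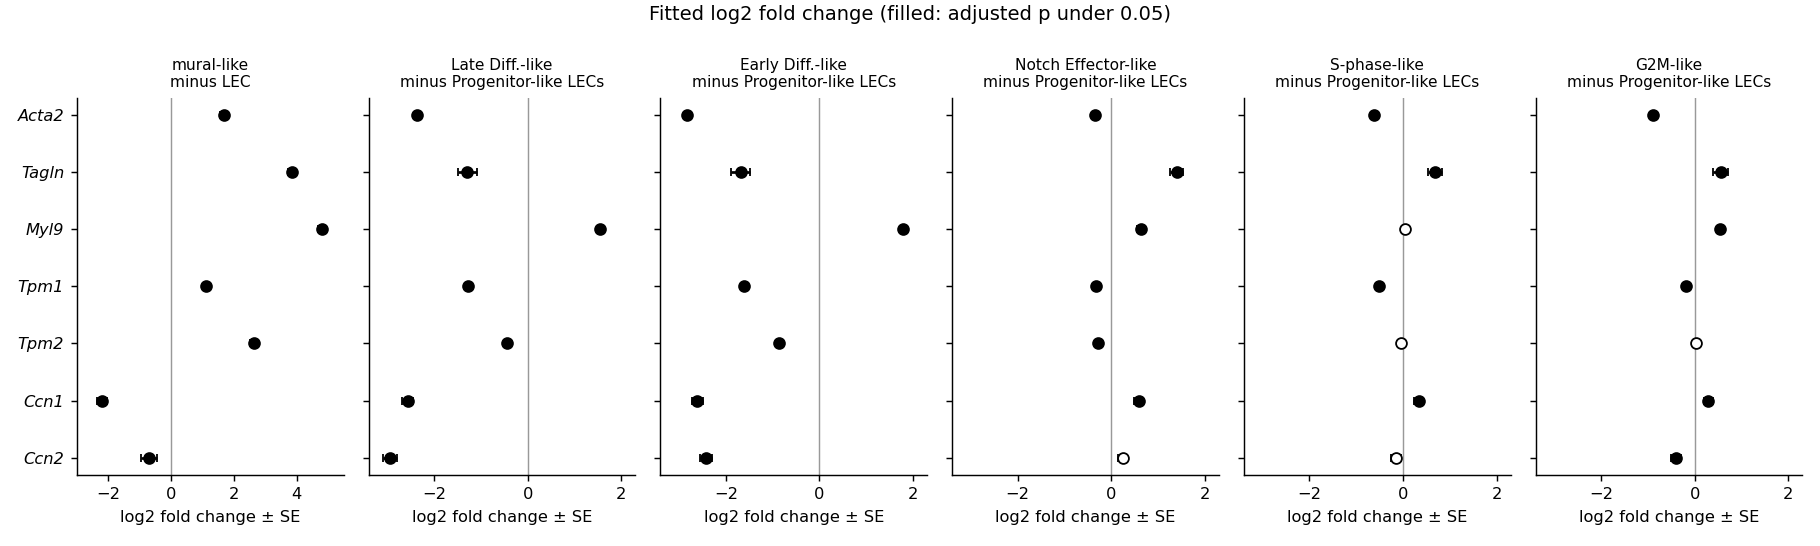
Fitted log2 fold change with its SE for 7 genes (rows) in the 6 comparisons (panels), each the first group minus the second. Filled points passed the threshold of 0.05 on the adjusted p. The contractile genes lie right of 0 in mural-like cells, and all genes but Myl9 lie left of 0 in both differentiating classes.

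LECs were also ordered by the share of UMIs from 14 fiber crystallin genes and cut into quintiles in each pool. Cryba2, Crybb1 and Crygs are also markers of the Late class, so this order is not independent of the classes. A high crystallin share by itself lowers the CPM of other genes. Acta2 had 57.0 and 63.5 CPM in the quintile with the most fiber crystallin, against 367 and 298 CPM in the lowest quintile. Most of the difference lay in the last step, since the next highest quintile still had 259 and 215 CPM. Ccn1 was 7.48 and 8.75 times as high in the lowest quintile as in the highest, Ccn2 6.27 and 9.95 times, Tagln 5.04 and 4.41 times, Tpm1 3.44 and 3.17 times and Tpm2 2.02 and 1.84 times. Myl9 had 77.7 and 74.4 CPM in the highest quintile, against 43.1 and 37.7 CPM in the lowest.

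Ordered by the share of 11 immediate early genes, which include Fos, Jun and Egr1 and rise within minutes of stimulation or tissue dissociation, the same genes formed another gradient. Ccn1 had 829 and 891 CPM in the highest quintile, against 54.1 and 53.4 CPM in the lowest, and Tagln had 76.2 and 77.1 CPM, against 5.23 and 5.77 CPM. Acta2 had 436 and 403 CPM in the highest quintile, against 60.5 and 89.7 CPM in the lowest. Tpm2 changed least among the genes that were higher at the top of the order, at 91.4 and 80.9 CPM against 57.7 and 60.1 CPM, and Myl9 was lower in the highest quintile, at 51.6 and 39.7 CPM, against 70.1 and 61.0 CPM.

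Immediate early genes themselves differed between classes, with 0.402% and 0.436% of UMIs in Late Differentiating-like LECs, against 1.42% and 1.08% in Progenitor-like LECs. Within Progenitor-like LECs alone, Ccn1 was 3.22 and 4.66 times as high in the quintile with the most immediate early RNA as in the lowest. Tagln was 3.08 and 2.94 times as high, Acta2 1.66 and 1.60 times, and Tpm2 0.972 and 0.898 times. The lowest quintile of Progenitor-like LECs had 290 and 302 CPM of Acta2, above all 4 sums of the differentiating classes. It had 12.6 and 10.7 CPM of Tagln, which overlapped the 10.9 and 4.62 CPM of Early Differentiating-like LECs. Enzymatic dissociation preceded capture of all cells, and its part in these levels was not tested. Between cell types the immediate early share was alike, at 1.09% and 1.18% of UMIs in mural-like cells and 1.10% and 0.976% in LECs.

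**Figure D5:**
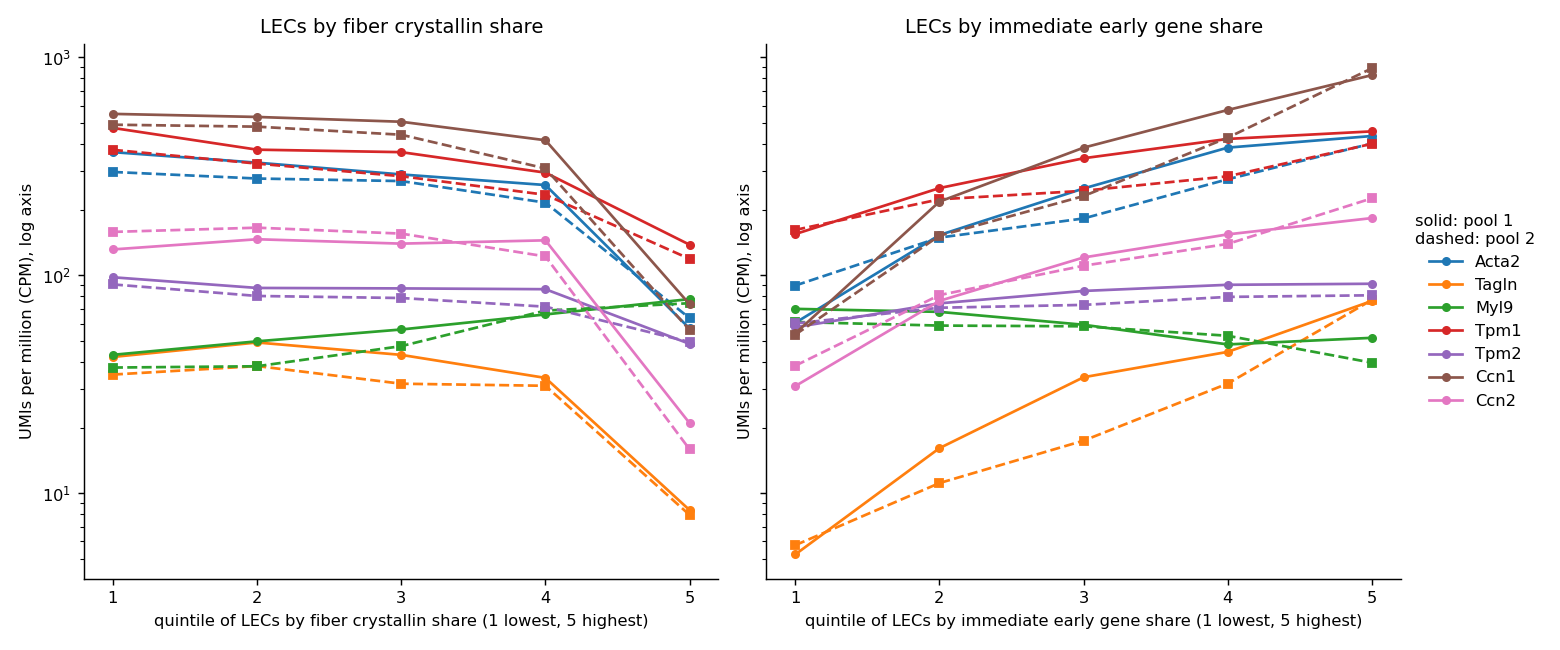
Level of 7 genes (CPM, log axis) in quintiles of LECs ordered by fiber crystallin share (left) and by immediate early gene share (right), pool 1 solid and pool 2 dashed. Along the left axis all genes but Myl9 drop at the last quintile, and along the right axis Ccn1 climbs the most steeply, reaching 829 and 891 CPM.

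Other genes of the same roles were read from lists. Of 22 contractile and actin cytoskeleton genes 20 were tested between mural-like cells and LECs, and 16 were higher and 2 lower in mural-like cells, where 26.8% of all genes were higher and 28.1% lower, with a median log2 fold change of 1.86 against -0.07 for all genes. Desmin (Des), a muscle intermediate filament, and Mylk, the kinase of the myosin light chain, led the list with log2 fold changes of 8.83 ± 0.33 and 7.31 ± 0.17. Tagln2, a relative of Tagln, and Lmod1, an actin nucleator of smooth muscle, followed with 5.75 ± 0.12 and 5.63 ± 0.69. In Late Differentiating-like LECs 6 of 19 tested were higher and 7 lower than in Progenitor-like LECs, and in Early Differentiating-like LECs 5 were higher and 10 lower. Of all genes, 31.4% were higher and 33.1% lower in the Late class and 24.5% each way in the Early class, so the Late counts and the Early count of higher genes were near those shares. Tagln2, Pdlim7 and Cald1, an actin-binding regulator of contraction, were higher in the Late class (3.06 ± 0.14, 2.83 ± 0.05 and 2.04 ± 0.04), whereas Cnn2, a non-muscle calponin, was lower (-2.90 ± 0.21).

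Of 21 further YAP-TEAD targets 19 were tested between mural-like cells and LECs, and 10 were higher and 5 lower, led by Foxf2, Axl, Myof and Rbms3. Among all genes tested there, 26.8% were higher and 28.1% lower. The direction of Ccn1 was thus not that of most called targets in mural-like cells. In Late Differentiating-like LECs 11 of 17 tested were lower and 5 higher than in Progenitor-like LECs, with a median of -0.98, and in Early Differentiating-like LECs 12 were lower and 2 higher. The shares of all genes were 33.1% lower and 31.4% higher in the Late class and 24.5% each way in the Early class. F3, the coagulation tissue factor, was at -3.59 ± 0.24 and Amotl2, a feedback inhibitor of YAP, at -2.77 ± 0.12 in the Late class. Thbs1, encoding thrombospondin, went the other way in the Early class, at 3.13 ± 0.07. In Notch Effector-like, S-phase-like and G2M-like LECs 8, 10 and 8 of the 17 were lower, and 2, 1 and 1 were higher. Of all genes, 11.5%, 28.8% and 21.8% were lower in these comparisons, and 12.8%, 26.4% and 20.6% were higher.

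Of the 17 Hippo pathway genes, Yap1 itself was not called between mural-like cells and LECs (log2 fold change 0.32 ± 0.25, adjusted p = 0.301) or between Late Differentiating-like and Progenitor-like LECs (-0.14 ± 0.08, adjusted p = 0.143). Wwtr1, which encodes TAZ, was higher in mural-like cells (2.74 ± 0.16, adjusted p = 5.19e-17) and lower in Late Differentiating-like LECs (-1.97 ± 0.12, adjusted p = 9.02e-14). Tead4 and Vgll4, a factor that competes with YAP for TEAD, were also lower in the Late class (-2.49 ± 0.30 and -1.55 ± 0.06). In all, 5 of 14 tested were higher and 2 lower in mural-like cells, and 3 of 17 were higher and 8 lower in the Late class, near the 54.9% and 64.6% of all genes called in these comparisons. Of 8 genes listed as SRF and MRTF factors 6 were tested there. Elk3, Mrtfa, Elk4 and Mrtfb were higher in mural-like cells and none was lower, where 26.8% of all genes were higher and 28.1% lower. Srf was not called (log2 fold change -0.02 ± 0.46). In the Late class 5 of 7 tested were lower and none was higher, where 33.1% of all genes were lower and 31.4% higher. The largest drop was that of Klf4 (-2.18 ± 0.09), a zinc finger factor that is neither SRF nor an MRTF. The authors name Klf4 among the genes upregulated in their progenitor cluster.

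The immediate early genes split between mural-like cells and LECs, with 5 of 11 higher and 5 lower, where 54.9% of all genes were called. In the Late and the Early class 10 of 11 were lower than in Progenitor-like LECs and only Atf3, a stress-induced factor, was higher (3.21 ± 0.07 in the Late class). In Notch Effector-like LECs 7 were higher and 1 lower. Of all genes, 33.1% were lower in the Late and 24.5% in the Early class, and 12.8% were higher in the Notch Effector-like class.

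Over the 12 sums of class and pool, Acta2 was most like Klf4, Tanc1 and Htra3 (Pearson r of log2(CPM + 1) of 0.986, 0.985 and 0.983), and Tagln was most like Ccn1, Ifrd1 and Ier2 (0.958, 0.957 and 0.930). Myl9 was most like Prox1, a factor of fiber differentiation, Fam110b and Ezr (0.973, 0.958 and 0.957). Tpm1 was closest to Atf4, Aldh1a1 and Zbtb8b, and Tpm2 to Galns, Zbtb8b and Ptn. Ccn1 was closest to Prrt4, Net1 and Ccn2, and Ccn2 to 4930523C07Rik, Amotl2 and Prrt4. Among the members, Acta2 and Tpm1 had an r of 0.963 and Acta2 and Myl9 an r of -0.842. These values describe 12 sums from 2 pools, chosen as the highest among 5396 genes, and sums of a pool share its library and depth.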

How the data were processed

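Droplet single-cell RNA libraries (3′ v3.1 chemistry) of 2 pools were analysed. The authors aligned the reads to mm10 with Cell Ranger, and the deposited values are raw UMI counts per gene and barcode in filtered matrices whose file headers name Cell Ranger 6.1.1. The pools held 93839132 and 86033032 UMIs in 12314 and 9425 barcodes (median 6307 and 8050 UMIs). Barcodes between percentiles 2 and 97 of UMIs and genes, with at most 15% mitochondrial UMIs, were kept (11585 and 8517), and the top 8% of Scrublet doublet scores per pool were removed, leaving 10658 and 7836.

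Cell types were gated on marker genes, with gate thresholds set after the marker distributions were seen. Cells with at least 10 endothelial or macrophage UMIs formed those types, and LECs had at most 5 of them and under 1% erythroid UMIs. LEC classes followed the highest mean standardised marker score, of at least 0.25. The 10 genes and all lists were chosen with earlier results of these data known.

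Counts were summed per pool and cell type or class and fitted with edgeR 4.0.16 (quasi-likelihood test, TMM, filterByExpr) in R 4.3.3, with the pool as a block. Groups of 1 pool come from the same animals and library, which is where the pairing comes from. Benjamini-Hochberg adjusted p-values under 0.05 over all genes tested were called, in 6 comparisons. Levels are CPM of the summed counts without TMM scaling, with exact Poisson intervals at 95%. With 2 pools, p-values and SEs rest on the spread between these sums, fitted over all cell types or all classes together and shared between genes. All 10 genes are named in every comparison. From each list up to 4 called genes with the largest change, and for each member the 3 genes most alike at 20 CPM or more, could be named, and Yap1, Srf, Elk4 and Mrtfb were named after their values were seen. On simulated counts the fit of mural-like cells against LECs found 71% of 2-fold and 98% of 4-fold changes among 7729 genes. There 100 genes were changed at each fold, the spread was set in advance, and 6 of 7529 unchanged genes were called. In the data 54.9% of genes were called in this comparison, so the simulated rates need not hold for it.

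Alternatives were DESeq2 1.42.0, no filter on low counts, no pool term, no doublet removal, a gate of 0 mural UMIs in LECs, 4% alpha crystallin, leaving out barcodes under 1% mitochondrial UMIs, thinning to 2000 UMIs, halving in place of quintiles, and each pool alone. Scaling to library size and a class margin of at least 0.25 were added after seeing the data. Python 3.11.15 with scanpy 1.11.5 was used for the counts. A lens gene is not reported here.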

Additional observations from a re-analysis of the deposited data

How the results depend on the processing

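Over 418 log2 fold changes of the 10 genes under alternatives, none changed sign with both pools, 392 stayed on their side of the threshold, 22 no longer passed and 4 newly passed. Of the 94 values from 1 pool alone, which carry no test because no residual degrees of freedom were left, 5 changed sign. In the Late and Early Differentiating-like comparisons no call of a member was lost. Ccn2 between mural-like cells and LECs lost its call in DESeq2, without the pool term and with library size scaling, and its values are given above. In the other classes, 9 of the 22 lost calls came with DESeq2 and 10 without the pool term, counting Ccn2 in mural-like cells. The cause was not tested.

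DESeq2 called 3910 in the Early, 1396 in the Notch Effector-like, 4321 in the S-phase-like and 3366 in the G2M-like comparison, against 6395, 3164, 7201 and 5542 in edgeR. Of the S-phase-like calls 58.3% were higher in DESeq2, against 47.9% in edgeR. Without the replicate block for the pairing by pool, 1351 genes were called in the Notch Effector-like comparison. Thinned to 2000 UMIs, 4639 (Late), 3418 (Early), 1541 (Notch Effector-like), 4307 (S-phase-like) and 2933 (G2M-like) genes were called, with fewer UMIs in every sum. The mural RNA in LECs was 0.107% of the mural level by Serpine2 and 0.0161% by Rgs5, and 0.0152% to 0.0169% by Rgs5 in single pools. Cnn1, Actg2 and Ankrd1 had too few UMIs for a comparison of mural-like cells with LECs, and mural-like cells numbered 373.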
